A study of Mus musculus with 2 samples.

Results

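The mitoribosomal protein genes are the nuclear genes whose symbol, old or current, begins with Mrpl (large subunit) or Mrps (small subunit) followed by a digit. On the mouse array used, 78 of 23473 gene probes met this rule. They stood for 77 of 23232 genes or unnamed probes, 49 of the large subunit and 28 of the small one. The platform listed 3 of them under an older symbol, Mrpl57 (as Mrp63), Mrpl42 (as D10Ertd322e) and Mrpl58 (as Ict1). The expression of these genes was compared between transgenic (TG) and non-transgenic (NTG) hearts in 2 mouse lines, L9 and L19.

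Mitochondria keep a small genome of their own, which encodes core subunits of the respiratory chain and of ATP synthase together with ribosomal and transfer RNAs. All proteins of the mitochondrial ribosome are encoded in the nucleus, made in the cytosol and imported. The large subunit joins amino acids and holds the exit tunnel, and the small subunit reads the mRNA. Some of these proteins have bacterial counterparts and others are found only in mitochondria. The heart depends heavily on oxidative phosphorylation, and mutations of several mitoribosomal proteins cause cardiomyopathy in humans.

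The TG mice of both lines carry the human pri-miR-143/145 sequence under the αMHC promoter, which is active in cardiomyocytes (αMHC/miR-143/145TG). Founders came from B6D2F1 eggs and the lines were then bred onto C57BL/6 J. Hearts were taken at 3 months of age, and wild-type NTG heart RNA of the same age was the control. Each line had 1 two-colour array, with TG RNA in Cy3 and NTG RNA in Cy5 on both. The dyes were not swapped, so genotype and dye cannot be told apart. The NTG RNA bore one label on both arrays and counted as 1 control sample, so the 2 lines share it and n = 2 refers to the TG lines. The series describes 1 mouse per channel.

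Each array held 23474 gene spots and 2736 blank spots. On the L9 array 18441 probes exceeded background in each channel, and on the L19 array 18824 did. Signals were taken above the blank spots, and the ratio of TG to NTG was set to 1 at the median probe of an array. A gene was read from its brightest probe, which gave 17485 genes or unnamed probes measured in both lines. The αMHC-driven cell type was present in all channels. All 8 cardiomyocyte markers on the array were detected, with a summed signal of 93485 (L9) and 114507 (L19) in TG hearts. The NTG channels of the same arrays had 162149 and 172767. Of the 8, 7 were lower in both lines, and Myl3 had log2 ratios of 0.16 in L9 and -0.07 in L19. All 12 fibroblast markers were detected too, with 13364 (L9) and 14772 (L19) in TG hearts, against 7598 and 9442 in NTG hearts. Gsn and Dcn were the brightest of them, at 8208 and 3479 in L19 TG hearts. Of the 12, 11 were higher in both lines, but Col3a1 and Col1a1 had log2 ratios of -0.02 and 0.08 in L19. Endothelial sums were 1112 (L9) and 1338 (L19) in TG hearts, against 1437 and 1694 in NTG hearts. Of the 6 endothelial markers 3 were lower in both lines and 3 differed in sign, among them Pecam1 at -0.09 in L9 and 0.38 in L19. Macrophage sums were 607 and 480, against 538 and 583. In whole-heart RNA, fewer cells of a type and less RNA per cell cannot be told apart. The part of these shifts in the values below was not tested.

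Of the 77 genes, 76 were measured in both lines. As a group they lay close to the NTG level. The median log2 ratio was -0.02 in L9 and -0.08 in L19, and the median of the mean of both lines was -0.05, a ratio of 0.965. Over all 17485 genes that median was -0.01. The members were spread less than the array as a whole, with an SD of 0.33 over genes, against 0.44 over all genes. Of the 76 members, 67 (88.2%) stayed within 1.5-fold in both lines, while 73.1% of all genes did. This was not particular to the members, since cytosolic ribosomal proteins had an SD of 0.30 and 89.5% within 1.5-fold. Respiratory chain and ATP synthase genes had 0.36 and 74.7%. The comparison with all genes was not matched for signal, and 71 members were in the upper 50% of signal. These figures describe the arrays, since genes are not replicates. The group's position depended on the background correction, with a median of 0.35 under normexp with an offset of 50 and of -0.17 without the offset.

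The direction was mixed. Relative to NTG, 25 members were higher in both lines, 37 were lower in both and 14 differed in sign between the lines. Over all genes 35.5% were higher in both lines and 38.4% lower in both. A difference of more than 1.5-fold in both lines, the cutoff of the study, was seen for 4 members above (Mrps2, Mrps6, Mrpl10 and Mrps26) and 1 below (Mrps33). The array-wide shares were 5.2% above and 3.03% below, and the members' shares were 5.26% and 1.32%, which lie near or under this background. In single lines, 5 members were above the cutoff in L9 and 5 in L19, with backgrounds of 10.6% and 9.77%. Below it were 3 members in L9 and 1 in L19, with backgrounds of 7.47% and 7.61%.

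No member passed limma's test of the mean log2 ratio against 0 at a Benjamini-Hochberg adjusted p of 0.05 over all genes, and no other gene did (0% of genes higher and 0% lower). The smallest adjusted p on the array was 0.0856 and belonged to Mrps33, among others. At an unadjusted p of 0.05, limma counted 9 members as higher and 8 as lower, with backgrounds of 15.7% and 14.4% of all genes. With a variance trend over signal and robust estimation, limma called 12 members higher and 9 lower at an adjusted p of 0.05, with backgrounds of 10.3% and 9.29%. With 2 lines and 1 control, these p-values cover the spread between the lines only and leave out that between control mice.

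**Figure D1:**
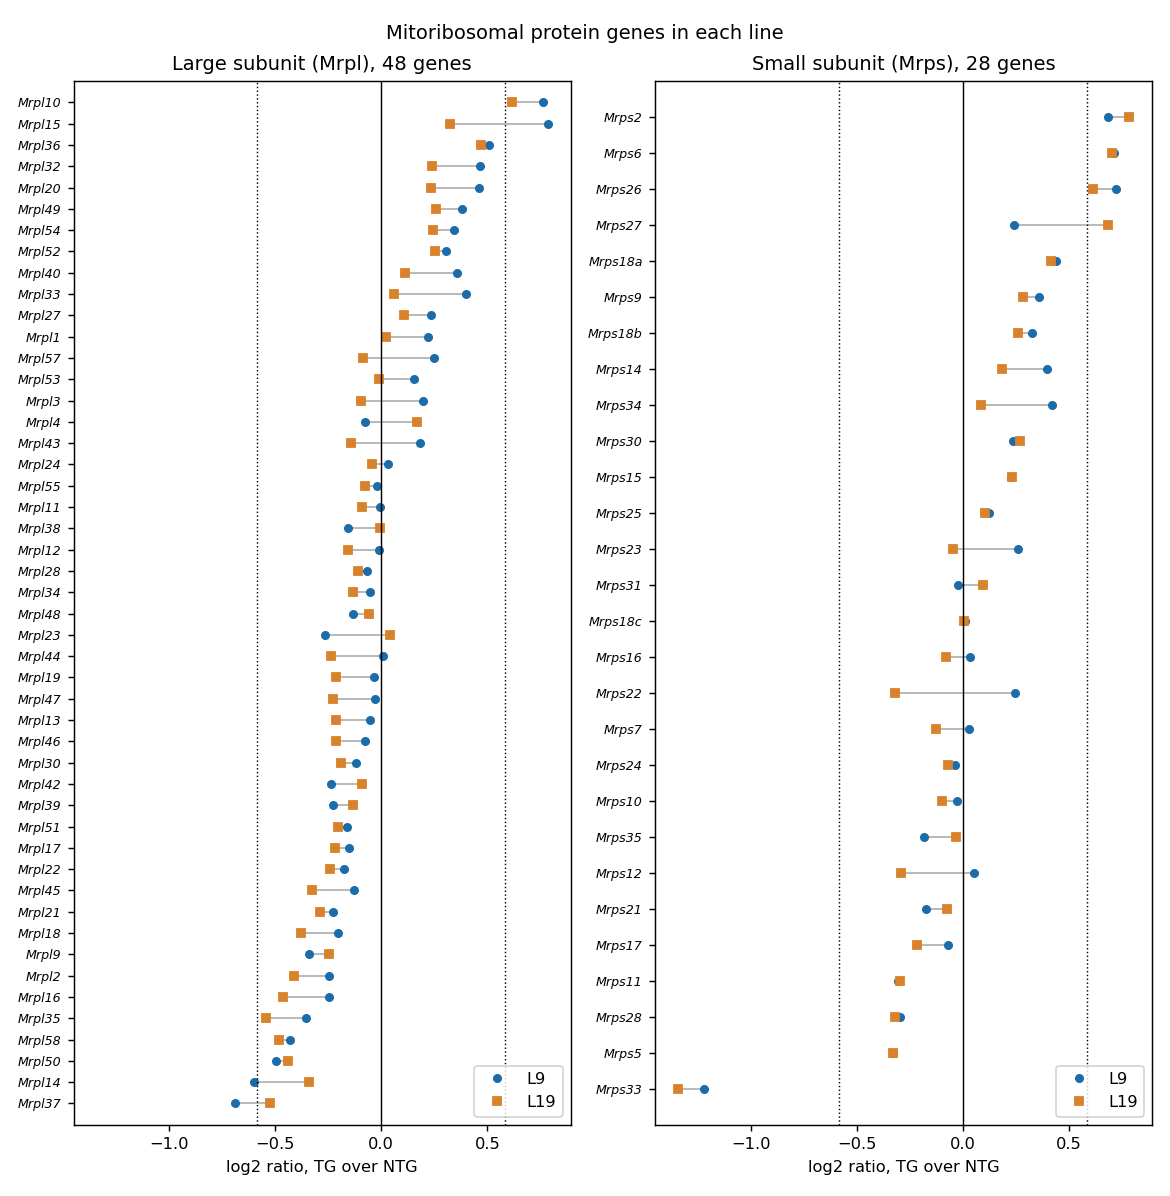
Log2 ratio of TG over NTG signal in L9 (circles) and L19 (squares) for the 76 mitoribosomal protein genes measured in both lines, large subunit on the left and small subunit on the right, sorted by the mean; dotted lines mark 1.5-fold. Most genes lie between the dotted lines, and Mrps33 stands lowest at -1.22 in L9 and -1.34 in L19.

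The clearest single difference was that of Mrps33, a small-subunit protein found in mitochondria and not in bacteria. Its signal was 763 in L9 hearts, against 1777 in the NTG channel of that array. It was 578 in L19 hearts, against 1465 in the NTG channel. Both TG values were lower than both NTG values, which are readings of 1 control RNA. The same held for 27 of the 76 members and 28.6% of all genes, and the TG values lay wholly above the NTG values for 21 members and 26.3% of all genes. The level in TG hearts was 42.9% of NTG in L9 and 39.5% in L19, and the mean log2 ratio was -1.28 ± 0.09 (SD, n = 2; SE 0.11; limma adjusted p = 0.0856, and 0.000463 with trend and robust estimation). RefSeq lists a pseudogene copy of Mrps33, and whether the probe also binds its transcripts was not tested.

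Among the 4 members above the cutoff, 3 belong to the small subunit. Mrps2, the counterpart of a bacterial small-subunit protein, had signals of 76.8 in L9 hearts, against 47.8 in NTG, and of 87.0 in L19 hearts, against 50.7 in NTG. Its ratio was 1.61 in L9 and 1.72 in L19 (mean log2 ratio 0.73 ± 0.07, SD, n = 2; limma adjusted p = 0.0861). Mrps6, also with a bacterial counterpart, had signals of 431 in L9 hearts, against 264 in NTG, and of 482 in L19 hearts, against 296 in NTG. The 2 lines hardly differed for this gene, with ratios of 1.64 and 1.63 (mean log2 ratio 0.71 ± 0.005, SD, n = 2; limma adjusted p = 0.0861).

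Mrps26, a small-subunit protein without a bacterial counterpart, had signals of 578 in L9 hearts, against 351 in NTG, and of 579 in L19 hearts, against 379 in NTG (mean log2 ratio 0.67 ± 0.08, SD, n = 2; limma adjusted p = 0.0906). The only large-subunit gene above the cutoff was Mrpl10, whose protein forms the base of the stalk that binds translation factors. Its signals were 340 in L9 hearts, against 201 in NTG, and 369 in L19 hearts, against 241 in NTG (mean log2 ratio 0.69 ± 0.10, SD, n = 2; limma adjusted p = 0.0900). In each of these 4 genes, chosen for their ratios, the TG values lay above the NTG values, as in 26.3% of all genes. All 4 kept their direction under each alternative, but under normexp without an offset 0 members were above 1.5-fold in both lines, against 4.22% of all genes.

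The cutoff separated near neighbours. Just inside it were Mrps26 and Mrpl10, with ratios of 1.53 each in L19, and just outside it was Mrpl37, at 62.0% of NTG in L9 and 69.7% in L19. Mrpl37 is a large-subunit protein specific to mitochondria. It had signals of 246 in L9 hearts, against 397 in NTG, and of 289 in L19 hearts, against 414 in NTG (mean log2 ratio -0.61 ± 0.12, SD, n = 2; limma adjusted p = 0.0993, and 0.00657 with trend and robust estimation). The TG and NTG values did not overlap.

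**Figure D2:**
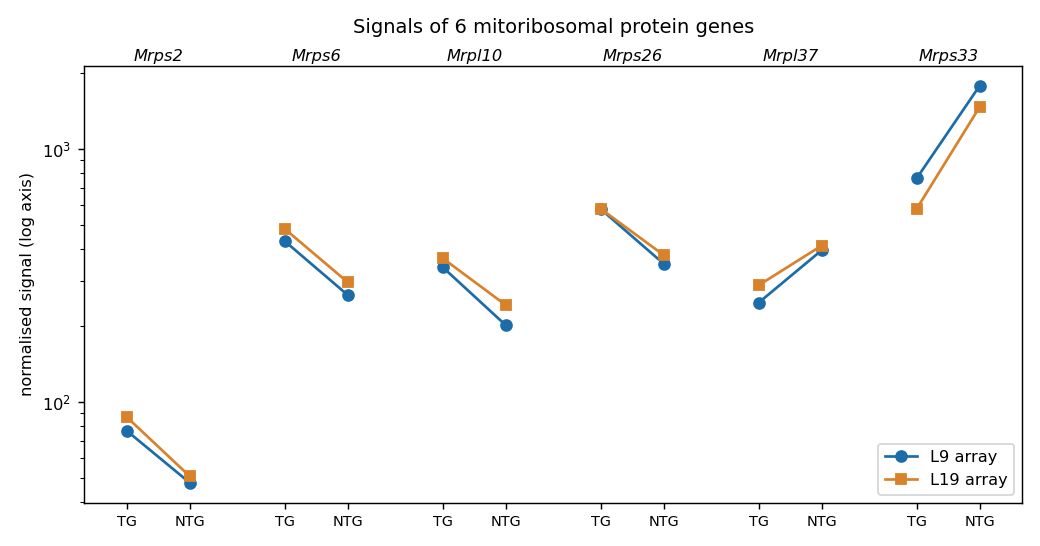
Normalised signal (log axis) of the 5 genes past 1.5-fold in both lines and of Mrpl37, TG left of NTG, with a line joining the channels of each array (L9 circles, L19 squares). Signals of Mrps33 were 763 and 578 in TG hearts, against 1777 and 1465 in NTG hearts, and the lines of each gene slope the same way on both arrays.

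The promoters of the 5 genes past the cutoff are shown because these genes moved the same way in both lines, and to let their start regions be compared. The windows run 5′ to 3′ on the gene's strand, from 250 bases before to 50 bases after the start, as given by RefSeq on GRCm38.p6. The Mrps2 window lies inside the span listed for that gene, which begins at chr2:28465951, so it surrounds a start further downstream. Capitals mark letters of motifs searched on both strands. The motifs were GCGCATGCG (NRF1), CCGGAAG (ETS), AAGATGGCG (YY1) and CACGTG (E-box), and the ETS and YY1 letters can overlap, since the end of one is the start of the other.
Mrps33 (chr6:39810887-39811186, minus strand): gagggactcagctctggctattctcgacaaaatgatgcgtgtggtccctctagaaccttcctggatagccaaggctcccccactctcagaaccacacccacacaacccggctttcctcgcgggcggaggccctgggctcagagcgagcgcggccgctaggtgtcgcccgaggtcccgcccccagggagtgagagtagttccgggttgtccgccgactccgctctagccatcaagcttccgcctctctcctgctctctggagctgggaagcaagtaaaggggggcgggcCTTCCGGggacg
Mrps2 (chr2:28467816-28468115, plus strand): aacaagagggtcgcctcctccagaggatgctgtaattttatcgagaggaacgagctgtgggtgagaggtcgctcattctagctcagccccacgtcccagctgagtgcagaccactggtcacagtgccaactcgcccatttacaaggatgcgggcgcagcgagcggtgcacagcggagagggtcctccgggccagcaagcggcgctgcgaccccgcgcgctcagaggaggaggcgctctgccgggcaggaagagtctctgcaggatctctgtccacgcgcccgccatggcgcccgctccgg
Mrps6 (chr16:92058086-92058385, plus strand): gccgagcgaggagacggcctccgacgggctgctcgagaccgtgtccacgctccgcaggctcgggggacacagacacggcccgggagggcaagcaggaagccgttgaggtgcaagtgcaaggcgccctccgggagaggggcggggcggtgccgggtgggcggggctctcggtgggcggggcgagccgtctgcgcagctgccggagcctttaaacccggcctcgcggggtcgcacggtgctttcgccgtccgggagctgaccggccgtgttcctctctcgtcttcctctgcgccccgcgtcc
Mrps26 (chr2:130563507-130563806, plus strand): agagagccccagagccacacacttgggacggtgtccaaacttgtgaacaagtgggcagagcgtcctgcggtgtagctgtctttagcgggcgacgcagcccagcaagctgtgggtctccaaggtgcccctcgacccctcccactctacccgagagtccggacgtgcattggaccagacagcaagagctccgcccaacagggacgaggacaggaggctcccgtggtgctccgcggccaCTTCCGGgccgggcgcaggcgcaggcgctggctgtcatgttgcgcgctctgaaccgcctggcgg
Mrpl10 (chr11:97041332-97041631, plus strand): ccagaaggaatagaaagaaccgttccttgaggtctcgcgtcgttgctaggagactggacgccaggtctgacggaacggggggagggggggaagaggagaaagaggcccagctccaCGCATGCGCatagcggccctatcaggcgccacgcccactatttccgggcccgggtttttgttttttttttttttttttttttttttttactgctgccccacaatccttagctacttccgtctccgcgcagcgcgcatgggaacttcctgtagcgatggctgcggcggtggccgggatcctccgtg

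The ETS letters stood in Mrps33, which was lower, and in Mrps26, which was higher. The NRF1 letters stood in Mrpl10, and no motif was matched in the windows shown for Mrps2 and Mrps6. NRF1 and the ETS-family factor GABP are known as regulators of nuclear genes for mitochondrial proteins. A window was given for 68 members. The ETS letters were in 26 of them (38.2%), against 9.93% of all 27025 genes with a window. The NRF1 letters were in 7 (10.3%), against 1.95%, and the YY1 letters in 8 (11.8%), against 1.64%. The E-box was in 5 (7.35%), against 8.09%. A match describes letters and not binding. Of the members measured in both lines, the 26 with the ETS letters had a median of the mean log2 ratio of -0.01 and the 41 without had -0.06. For NRF1 it was -0.18 in the 7 with the letters and -0.05 in the 60 without.

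By subunit, the medians were slightly apart. The median log2 ratio of the 48 large-subunit genes was -0.05 in L9 and -0.12 in L19, against 0.09 and -0.01 for the 28 small-subunit genes. The large minus small difference was -0.14 in L9 and -0.11 in L19. The SD over genes of the mean log2 ratio was 0.28 in the large and 0.40 in the small subunit, and no test was made across genes. Of the 48 large-subunit genes 12 (25%) were higher in both lines and 28 (58.3%) lower in both. Of the 28 small-subunit genes 13 (46.4%) were higher in both and 9 (32.1%) lower in both. Over all genes the shares were 35.5% and 38.4%. Mrps30 and Mrps18a bear small-subunit names, but their proteins sit in the large subunit. Counted by structure, the difference narrowed to -0.09 in L9 and -0.06 in L19.

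Proteins classed as with and without bacterial counterparts were close to each other in the large subunit. In the classing used, Mrpl58 and Mrps18a were taken as specific to mitochondria, but Mrps18b and Mrps18c as having a counterpart. The median of the mean log2 ratio was -0.09 for the 30 genes classed with a counterpart and -0.09 for the 20 classed as specific to mitochondria. In the small subunit it was -0.05 for 17 genes with a counterpart and 0.11 for 9 specific to mitochondria. This last class held both Mrps26 and Mrps33, and its SD over genes was 0.55.

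**Figure D3:**
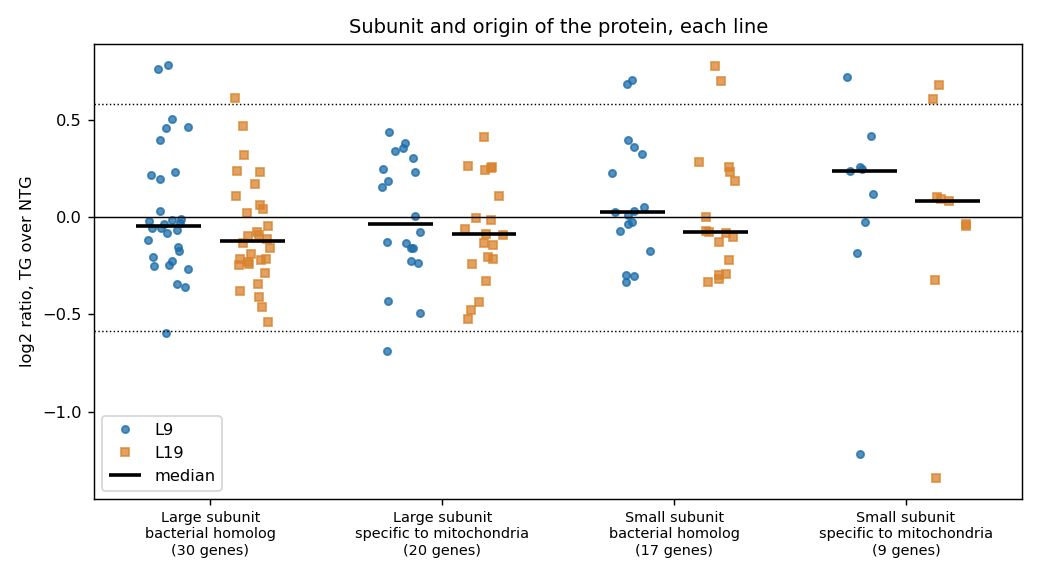
Log2 ratio of TG over NTG in each gene (circles L9, squares L19) by subunit and by whether the protein was classed as having a bacterial homolog. Bars are medians and dotted lines mark 1.5-fold. The classes overlap widely, and the 9 small-subunit genes specific to mitochondria span the widest range, with Mrps33 at the bottom.

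Within the large subunit, the genes that stood highest after Mrpl10 were Mrpl15, Mrpl36, Mrpl32 and Mrpl20, all with bacterial counterparts. Mrpl36 had ratios of 1.42 in L9 and 1.39 in L19 (mean log2 ratio 0.49 ± 0.02, SD, n = 2). Mrpl32, which is cleaved by the m-AAA protease on import, had log2 ratios of 0.47 in L9 and 0.24 in L19, and those of Mrpl20 were 0.46 and 0.23. The Mrpl15 probe was dim, with signals of 8.51 and 7.25 in TG hearts, against 4.93 and 5.79 in NTG hearts, and its log2 ratios of 0.79 in L9 and 0.32 in L19 differed by 0.46. Mrps18a followed the same direction at 0.44 and 0.41.

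The lowest large-subunit genes after Mrpl37 were Mrpl14, Mrpl50, Mrpl58, Mrpl35, Mrpl16 and Mrpl2. Mrpl14, which lies at the face between the subunits, had log2 ratios of -0.60 in L9 and -0.34 in L19. Mrpl50, specific to mitochondria, had -0.49 and -0.44. Mrpl58 is a peptidyl-tRNA hydrolase that frees stalled ribosomes and is also built into the large subunit. It had -0.43 in L9 and -0.48 in L19, with signals of 201 and 217 in TG hearts, against 270 and 303 in NTG hearts. Mrpl35, at -0.36 and -0.54, was dim, with signals of 21.6 and 18.3 in TG hearts, against 27.6 and 26.6 in NTG hearts. Mrpl16 and Mrpl2 had means of -0.36 and -0.33. In the small subunit, Mrps5 and Mrps28 were at -0.33 and -0.31 on average, with SDs between the lines of 0.00061 and 0.017 (n = 2 each).

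Mrpl41 was measured in one line only. In L9 its TG signal of 2.80 was not well above background, against 4.99 in NTG, so TG was at least 1.56-fold lower there, with the dim channel set to the lowest detected signal of 3.20. In L19 its signals were 4.41 in TG and 6.27 in NTG (log2 ratio -0.51). Mrps30 had 2 probes. The brighter one gave log2 ratios of 0.23 in L9 and 0.27 in L19, and the dim one 0.03 and -0.12, so the probes disagreed on the sign in L19.

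The 2 lines differed little for most members. The SD of the L9 minus L19 difference was 0.17 over members, against 0.42 over all genes. That comparison was not matched for signal. The same SD was 0.14 over respiratory chain and ATP synthase genes and 0.22 over cytosolic ribosomal proteins. An SD below that of all genes was therefore not particular to the members. The largest differences were those of Mrps22, Mrpl15, Mrps27, Mrps12 and Mrps34. Mrps22, mutated in some human cardiomyopathies, had log2 ratios of 0.25 in L9 and -0.32 in L19. Mrps12, which lies at the decoding centre, had 0.05 and -0.29. Mrps27, an RNA-binding protein of the small subunit, had 0.24 in L9 and 0.68 in L19, and Mrps34 had 0.42 and 0.08. With 1 mouse per line, a difference between the lines and one between mice cannot be told apart. Mrpl3 and Mrpl44, also mutated in human cardiomyopathy and looked up for that reason, were at 0.20 and -0.09 and at 0.01 and -0.24.

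Related lists were set beside the members. Of 3 measured genes whose proteins sit in the mitoribosome but bear other symbols, Chchd1 (-0.39 in L9 and -0.46 in L19) and Ptcd3 (-0.25 and -0.43) were lower and Gadd45gip1 was at 0.16 and 0.12. The median of the mean log2 ratio was 0.04 for 12 mitochondrial translation factors, and none of them passed 1.5-fold in both lines. For 19 genes of mitoribosome assembly and rRNA modification it was -0.02. In that list Malsu1, which binds the large subunit during assembly, was highest at 0.42 and 0.57, and Eral1, a GTPase that binds the rRNA of the small subunit, was lowest at -0.62 and -0.47. For 14 mitochondrial aminoacyl-tRNA synthetases the median was -0.06, with 1 gene, Lars2, past 1.5-fold in both lines (-0.66 and -1.15). For 13 genes of mitochondrial transcription and RNA stability it was 0.001. No gene of these lists passed limma's test at an adjusted p of 0.05, and no other gene on the array did. With trend and robust estimation limma called 2 assembly genes higher and 1 lower, 3 synthetases lower and 2 transcription genes higher. It called 2 of the genes with other symbols lower and 0 translation factors. Over all genes the shares so called were 10.3% higher and 9.29% lower.

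The mitoribosomal genes were also set beside the respiratory chain and ATP synthase genes encoded in the nucleus. The products of most genes in that list, but not of Sdha to Sdhd, join those made by the mitoribosome. The median of the mean log2 ratio was -0.05 for the 76 members and -0.30 for 79 respiratory chain and ATP synthase genes. Per line it was -0.02 in L9 and -0.08 in L19 for the members, against -0.34 and -0.25. Of the 76 members 37 were lower than NTG in both lines and 1 was more than 1.5-fold lower in both. In the other list 63 of 79 and 11 of 79 were. Over all genes the shares were 38.4% and 3.03%. Of those 11 genes, Cox6b2 and Cox7b2 were dim, with TG signals of 5.40 and 4.74 in L9 and of 8.59 and 7.16 in L19. Cytosolic ribosomal proteins were near the members, with a median of -0.03 over 57 genes. The difference between these lists was not tested, since genes are not replicates and the lists share the same 2 arrays.

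**Figure D4:**
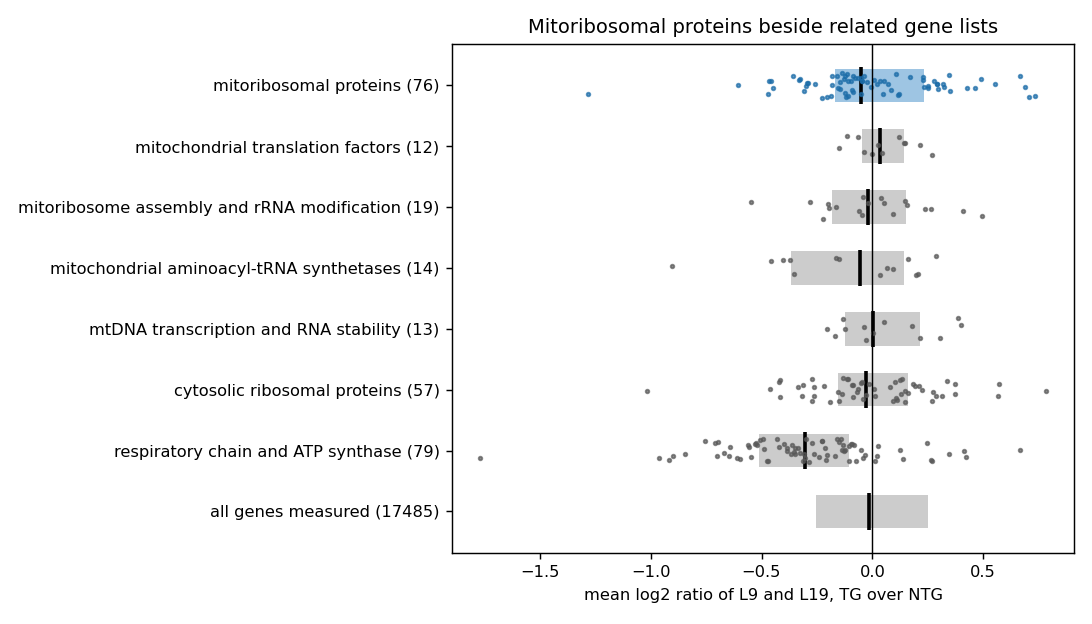
Mean log2 ratio of L9 and L19 for the mitoribosomal protein genes (top) and related gene lists, with the number of measured genes; points are genes, boxes the quartile range of each list and the black tick its median, and all 17485 genes are shown as a box only. With blank correction, the setting drawn, the respiratory chain box lies left of 0 with a median of -0.30, while the mitoribosomal median is -0.05.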

How the data were processed

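Total heart RNA of L9, L19 and NTG mice was labeled with Cy5 or Cy3 and hybridised to the Toray 3D-Gene Mouse Oligo chip 24. The authors' scanner files give Cy5 and Cy3 intensity spot by spot, uncorrected and not normalised. A deposited series table holds log2 ratios, whose unstated scale and direction were settled by recomputing it. Recomputed ratios (Cy3, TG, over Cy5, NTG) differed from that table by less than 0.001 for 18440 of 18441 probes in L9 and 18823 of 18824 in L19. The median of the table was -2.9e-06 for L9 and -4.0e-05 for L19.

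For background, the 2736 blank spots were trimmed by 5% on either side and averaged per channel. This average was subtracted, and probes more than 2 SD over it counted as detected. Ratios were scaled to a median of 1. Spots marked as bad gave no ratio. The platform names 16631 probes and leaves 6842 unnamed, and symbols were updated through unique synonyms in RefSeq (GRCm38.p6). Blank correction is the authors' setting as recovered here. The number of arrays limits the precision, and another background correction moved the ratios of bright probes too.

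The mean log2 ratio was tested by limma 3.58.1 (lmFit, eBayes; R 4.3.3) with Benjamini-Hochberg adjustment over 17485 genes, and the step was tested on simulated data. Python 3.11.15, numpy 2.4.6, pandas 2.3.3 and scipy 1.17.1 were used otherwise. The members and gene lists were chosen with earlier results of these data known. Genes named are those past 1.5-fold in both lines, the 10 highest and 10 lowest by mean, the 5 with the largest line difference, those with several probes or a bound, and Mrps30 and Mrps18a. Mrpl3 and Mrpl44 and the genes of other lists were named outside this rule. Alternatives were normexp background correction, loess, the deposited table, the upper 50% of signal, other cutoffs, each probe apart, limma with trend and robust estimation, a test over channel values and each line left out.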

Additional observations from a re-analysis of the deposited data

How the results depend on the processing

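The group values of the members changed little under the deposited table and loess, where the median of the mean log2 ratio was -0.05 and -0.06. They depended on the background correction. Under normexp with an offset of 50 the median of the members was 0.40 in L9, 0.30 in L19 and 0.35 for the mean. In both lines 66 members were higher and 6 lower. The shares of all genes for these counts are not given here, so they are not read as particular to the members. Above 1.5-fold in both lines were 14 members, against 5.51% of all genes. There limma called 56 members higher and 1 lower, against 30.4% and 13.1% of all genes. The 8742 genes of highest signal then had a median of 0.26, while all genes had 0.02, so under this setting the ratio moved with the signal. Without the offset, chosen after seeing the data, the medians were -0.13 in L9, -0.19 in L19 and -0.17 for the mean. In both lines 0 members were above and 2 below 1.5-fold, against 4.22% and 2.66% of all genes. There limma called 5 members higher and 5 lower, against 8.82% and 7.21% of all genes. On those 8742 genes alone limma called 6 of 71 members higher and 6 lower, against 14.1% and 14.6% of those genes. With trend and robust estimation, run on all 17485 genes, limma called 12 of 76 members higher and 9 lower. The shares over all genes were 10.3% and 9.29%. An unpaired test of the 2 TG against the 2 NTG channel values gave 9 higher and 5 lower members unadjusted, against 7.53% and 8.56% of all genes, and 0 in both directions after Benjamini-Hochberg adjustment. A cutoff of 1.3-fold left 6 members above and 4 below it in both lines, against 10.6% and 8.24% of all genes. A cutoff of 2-fold left 0 above and 1 below, against 1.25% and 0.566%. By structure the large minus small difference was -0.083. The cause of these changes was not tested.

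Leaving out 1 line gave 1 to 3 members below 1.5-fold and 5 above it. Over all genes the single-line shares were 7.47% and 7.61% below and 10.6% and 9.77% above, in L9 and L19. The large minus small difference was then -0.14 to -0.11, and the median lay between -0.08 and -0.02. With L19 left out, Mrps12 was at 0.054 and Mrps22 at 0.25, the opposite sign to their means of -0.12 and -0.04, and with L9 left out they were at -0.29 and -0.32. Under normexp with the offset the mean turned round for Mrpl14 (0.012), Mrpl15 (-0.10), Mrpl16 (0.11), Mrpl2 (0.14), Mrps12 (0.32), Mrps22 (0.32), Mrps28 (0.17) and Mrps5 (0.10), and the second probe of Mrps30 gave -0.048. Mrps2, Mrps6, Mrpl10, Mrps26, Mrpl37 and Mrps33 kept their direction under every alternative run. The main test is itself paired, since each ratio sets a TG channel against the NTG channel of its own array.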

Other observations

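Some mitoribosomal genes start close to a gene on the opposite strand, and the share of all genes that do so was not counted. Chosen after seeing the data, 26 of the 68 members with a RefSeq window had such a neighbour whose start lay within 1000 bases. The lowest large-subunit gene, Mrpl37 (-0.69 in L9 and -0.52 in L19), starts 128 bases from Cyb5rl, which was at -0.74 and -0.69. Mrpl14 (-0.60 and -0.34) starts 131 bases from Tmem63b, at -0.65 and -0.76. These were the only neighbours past 1.5-fold lower in both lines, of 19 pairs in which both genes were measured. Over all genes 3.03% were past it, and these 2 pairs are singled out for their values. Mrpl50 (-0.49 and -0.44) starts 93 bases from Zfp189, which went the other way at 0.35 and 1.04. The pair Mrpl46 and Mrps11, whose starts are 42 bases apart, was at -0.07 and -0.21 and at -0.30 and -0.30. Of the 19 pairs, in which that last pair counts from both sides, 13 had means of the same sign. Whether neighbours move together beyond other genes was not tested.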
